A study of Mus musculus with 6 samples.

Results

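The dual-specificity phosphatases of the MAP kinases were followed in sorted bone marrow cells of young and old C57BL/6 mice. The 10 genes Dusp1, Dusp2, Dusp3, Dusp4, Dusp5, Dusp6, Dusp7, Dusp10, Dusp16 and Dusp22 were picked by name, with earlier results of these data known. They were read by 12 probes, those annotated with a RefSeq transcript of one of these genes, out of 55681 probes, which stand for 37163 genes or transcripts with no matched symbol. Total RNA was hybridised to Agilent 1-colour arrays, 3 from mice aged 3 months, called young here, and 3 from mice aged 24 months, called old. The labels name the cells mesenchymal stem cells of the bone marrow, and they give neither a sort marker nor the number of animals behind a sample. No genotype, treatment or transgene is given for either group. Of 12 mesenchymal marker genes, 4 were well above background on all 6 arrays and 5, the receptors Pdgfra and Pdgfrb and the transcription factors Prrx1, Twist1 and Foxc1, on none. The sorted cells also carried signal of 9 of 9 erythroid, 12 of 12 neutrophil and 10 of 10 general leukocyte genes on every array.

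MAP kinases are switched on by phosphorylation of a threonine and a tyrosine in their activation loop. A dual-specificity phosphatase removes both phosphates and so ends the signal. The nuclear members Dusp1, Dusp2, Dusp4 and Dusp5 are encoded by genes that the kinases themselves induce within minutes of a stimulus, which makes them feedback inhibitors. Dusp6 and Dusp7 act on ERK in the cytoplasm, and Dusp10 and Dusp16 act on the stress kinases JNK and p38. Dusp3 and Dusp22 are small atypical enzymes that lack the kinase-docking domain of the others. In blood cells some of these genes, Dusp1 among them, are known for limiting cytokine output of activated leukocytes.

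Dusp2 fell 3.66-fold in old samples. It was the only one of the 7 tested members to pass the limma threshold after Benjamini-Hochberg adjustment over all genes, at 0.05, and it ranked 18 of 23266 genes by p. Dusp1 was 1.90-fold lower and just missed the threshold (adjusted p = 0.0503). Dusp6 was 1.45-fold lower and did not pass, and Dusp3, Dusp7 and the brighter probe of Dusp16 were within 1.12-fold of the young mean. When every probe was tested, a dimmer Dusp16 probe was 2.63-fold higher in old samples (limma adjusted p = 0.0372). That call was lost whichever sample was left out. Dusp4, Dusp5 and Dusp22 were too dim to be tested. Across all 23266 genes tested, 8.01% passed, and 4.04% passed as lower in old samples, so 1 call among 7 members is close to that background as a count. Old and young values did not overlap for Dusp1 and Dusp2, against 36.0% of all genes, and both lay lower in old samples, as 13.1% of all genes did without overlap. The median log2 fold change of the 7 tested members was -0.53, against 0.07 over all tested genes. That median is the value of Dusp10, a dim gene with a standard error of 0.48. Dusp10 ranged from -0.86 to -0.04 when each sample was left out in turn, and was at 0.0043 with normexp background correction. The median thus rests on an unsteady value. Normexp was run with an offset of 50 added to each signal, which by itself shrinks fold changes of dim probes, here and below.

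The 250 bases before the transcription start are shown for Dusp1, Dusp2 and Dusp5, inducible nuclear members of which Dusp2 passed the test, Dusp1 narrowly missed it and Dusp5 gave no signal above background. The sequences are from RefSeq on GRCm38.p6, a build other than the mm9 of the array design, and 9 of the 10 members matched the table, Dusp4 being the exception. Capitals mark the cAMP response element TGACGTCA, its core TGACG, the TATA box TATAAA and the CArG box, the serum response element core to which SRF binds, all searched on both strands. The core lies within the full element, so these matches overlap.
Dusp1, chr17:26508473-26508722, minus strand: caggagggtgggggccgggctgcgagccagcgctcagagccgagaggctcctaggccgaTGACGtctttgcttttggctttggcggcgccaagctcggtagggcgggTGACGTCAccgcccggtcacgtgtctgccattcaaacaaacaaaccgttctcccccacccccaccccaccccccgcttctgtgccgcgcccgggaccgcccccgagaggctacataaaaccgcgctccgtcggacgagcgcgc
Dusp2, chr2:127335909-127336158, plus strand: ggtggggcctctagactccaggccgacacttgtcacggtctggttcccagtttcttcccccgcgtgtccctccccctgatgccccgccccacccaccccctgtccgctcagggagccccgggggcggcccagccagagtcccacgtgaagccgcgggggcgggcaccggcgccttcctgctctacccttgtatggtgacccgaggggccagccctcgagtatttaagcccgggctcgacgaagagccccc
Dusp5, chr19:53528895-53529144, plus strand: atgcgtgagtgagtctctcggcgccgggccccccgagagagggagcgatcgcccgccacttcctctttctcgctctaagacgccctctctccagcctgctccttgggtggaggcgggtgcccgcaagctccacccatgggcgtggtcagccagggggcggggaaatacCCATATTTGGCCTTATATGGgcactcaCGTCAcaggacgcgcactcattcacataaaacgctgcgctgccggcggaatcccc

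The Dusp1 window held a full cAMP response element from 143 to 136 bases before the start, a sequence present in 1.55% of 32851 promoter windows of this length. A further TGACG core lay 191 to 187 bases before the start. The Dusp5 window held 2 adjoining CArG boxes, from 82 to 73 and from 72 to 63 bases before the start, and a CArG box occurred in 1.47% of all windows. The TGACG core was found in the windows of Dusp1, Dusp5 and Dusp16 and in 17.8% of all windows. The Dusp2 window held none of the 4 sequences, which says only that these letters are not in it. These matches are descriptions of the sequence and were not set against the array values.

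Dusp2 (NM_010090), a nuclear phosphatase of ERK and other MAP kinases first known from activated T cells, had log2 signals of 2.91, 2.71 and 2.84 in the young samples, in the order of their replicate numbers. All log2 signals here take the 75th percentile of their array as 0, and samples are always given in the order of replicates 1, 2 and 3. The old samples had Dusp2 signals of 1.25, 0.77 and 0.82. The young values lay within a narrow band, every old value was below it, and old replicate 1 was the highest of the old samples. The log2 fold change of Dusp2 was -1.87 ± 0.15 (SE, n = 3 and 3, limma adjusted p = 0.0175), and its 95% interval ran from -2.24 to -1.50. Leaving out old replicate 2 or old replicate 3 gave nearly the same size, -1.78 and -1.81, but ended the call (limma adjusted p = 0.0579 and 0.0588). Testing every gene by its brightest probe, without the filter on dim ones, also ended the call (limma adjusted p = 0.0532). Whether the samples of a group are separate animals is not stated in the labels, so the p-values cover only sample-to-sample spread, which may be technical. In such bulk samples fewer cells of a type and less transcript per cell cannot be told apart.

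Dusp1 (NM_013642), the nuclear phosphatase that acts mainly on p38 and JNK and restrains inflammatory gene expression, had log2 signals of 1.41, 1.87 and 2.11 in young samples. In old samples the Dusp1 signals were 1.12, 0.80 and 0.68. The groups did not overlap, but young replicate 1 was only slightly above old replicate 1. The log2 fold change of Dusp1 was -0.93 ± 0.21 (limma adjusted p = 0.0503), with a 95% interval from -1.44 to -0.42. It passed in 5 of the 16 alternatives, among them the authors' deposited log2 values (-0.95, limma adjusted p = 0.0492), normexp background correction (-0.89, 0.0101) and leaving out young replicate 1 (-1.12, 0.0491). The smallest fold change of Dusp1 came without young replicate 3, at -0.77.

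Dusp4 (NM_176933), which acts on ERK and JNK, and Dusp5 (NM_001085390), specific for ERK, completed the nuclear group. Neither probe rose well above background on a single array, and no fold is given. Background-level signals of Dusp4 ranged from -6.70 to -5.54 in young and from -6.04 to -5.75 in old samples. Those of Dusp5 ranged from -6.20 to -4.86 in young and from -6.04 to -5.76 in old samples. Of the 4 inducible nuclear members, 2 could therefore be measured in these cells at this array sensitivity, and both had negative fold changes.

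**Figure D1:**
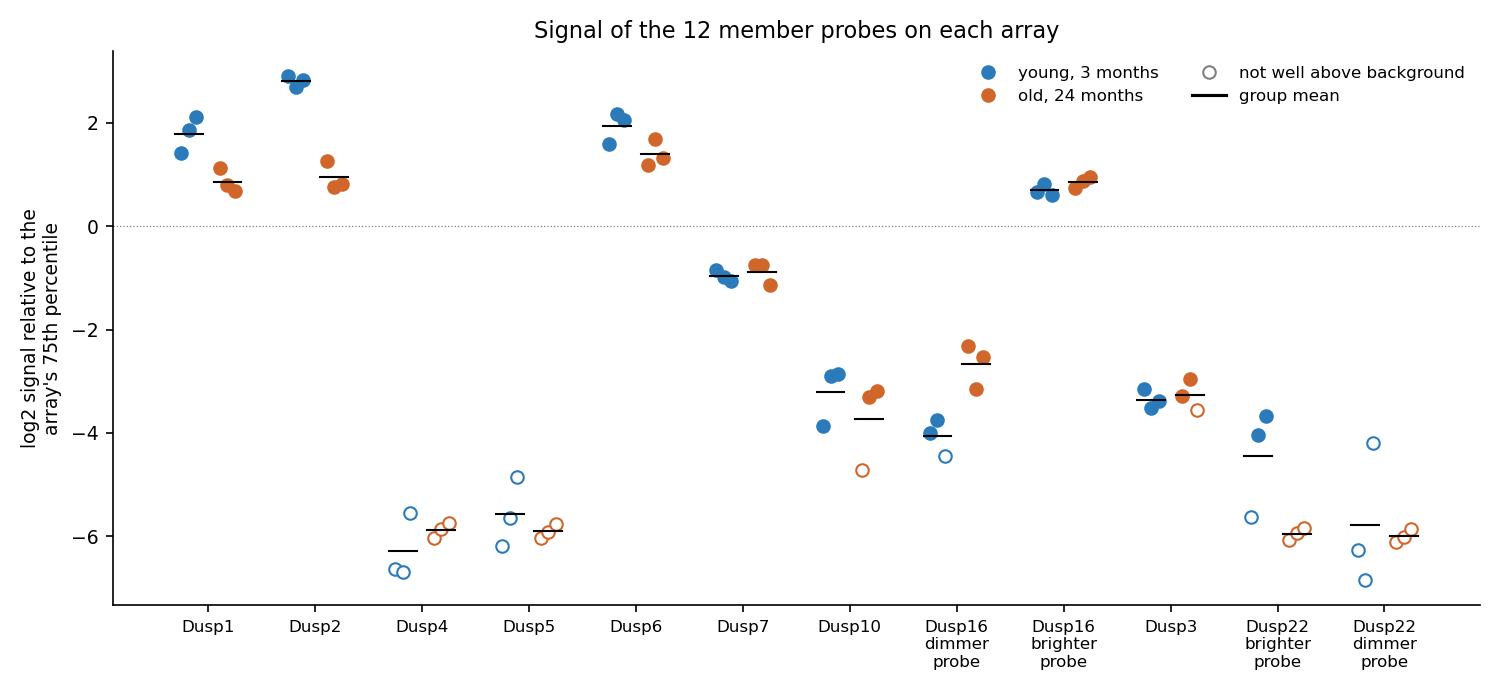
Log2 signal with the array's 75th percentile as 0 (vertical axis) for each of the 12 member probes (horizontal axis), with 3 young and 3 old arrays as points, group means as black lines and open points where a probe was not well above background. Dusp2 is separated most clearly, with young arrays from 2.71 to 2.91 and old arrays from 0.77 to 1.25; levels of different probes are not comparable with each other.

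Among the ERK phosphatases of the cytoplasm, Dusp6 (NM_026268), a classic feedback gene of growth factor signalling, had log2 signals of 1.59, 2.17 and 2.06 in young samples. In old samples the Dusp6 signals were 1.18, 1.70 and 1.33. Old replicate 2 was above young replicate 1, so the groups overlapped. The log2 fold change of Dusp6 was -0.54 ± 0.20 (limma adjusted p = 0.152), with a 95% interval from -1.03 to -0.04, and Dusp6 did not pass in any of the 16 alternatives. Dusp7 (NM_153459) had signals of -0.85, -0.97 and -1.05 in young and -0.74, -0.75 and -1.14 in old samples. The Dusp7 groups overlapped fully, with a log2 fold change of 0.08 ± 0.14 (limma adjusted p = 0.748) and a 95% interval from -0.25 to 0.41, which leaves out changes as large as that of Dusp2.

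**Figure D2:**
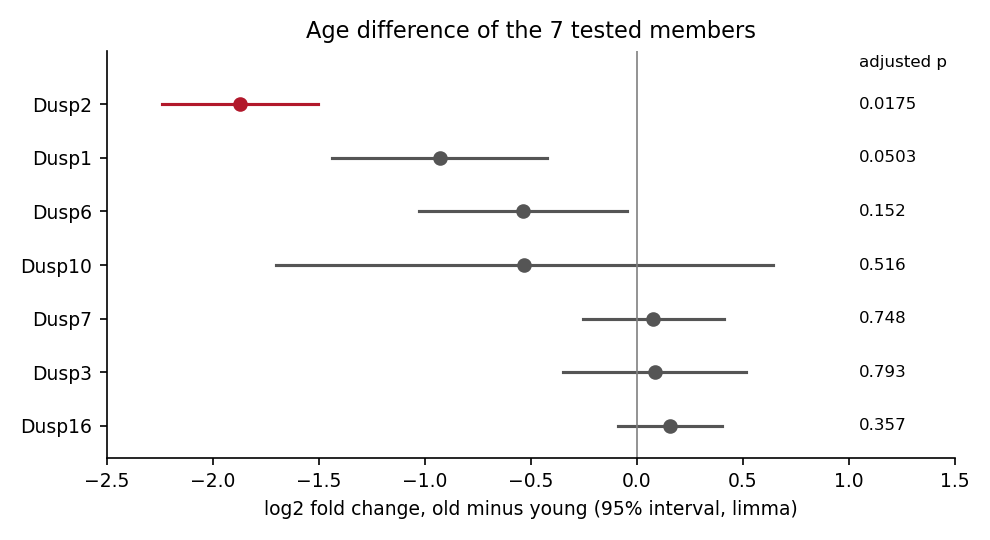
Log2 fold change, old minus young (horizontal axis), with its 95% limma interval for the 7 tested members, red where the adjusted p, printed at the right, was under 0.05. Dusp2 alone is red, at -1.87, the intervals of Dusp1 and Dusp6 lie below 0, and those of Dusp10, Dusp7, Dusp3 and Dusp16 include 0.

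Among the phosphatases of stress kinases, Dusp10 (NM_022019), which acts on JNK and p38, was dim, with signals of -3.88, -2.89 and -2.86 in young and -4.72, -3.31 and -3.19 in old samples. Replicate 1 was the lowest in both groups, and old replicate 1 was not well above background. The log2 fold change of Dusp10 was -0.53 ± 0.48 (limma adjusted p = 0.516), and its 95% interval from -1.70 to 0.64 was the widest of the tested members. It was -0.04 without old replicate 1 and -0.86 without young replicate 1, the 2 ends of the range when each sample was left out.

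Dusp16 (NM_130447), mainly a JNK phosphatase, was read by 2 probes that carry the same transcript accession. The brighter Dusp16 probe, which stands for the gene, had signals of 0.67, 0.83 and 0.61 in young and 0.75, 0.89 and 0.95 in old samples. The groups overlapped, and its log2 fold change was 0.16 ± 0.10 (limma adjusted p = 0.357; 95% interval from -0.09 to 0.40). The dimmer Dusp16 probe had signals of -4.00, -3.75 and -4.44 in young and -2.33, -3.15 and -2.53 in old samples, and all old values were above all young ones. When each of 31286 probes was tested on its own, of which 7.80% passed, the dimmer Dusp16 probe was 2.63-fold higher in old samples (log2 fold change 1.39 ± 0.27, limma adjusted p = 0.0372) and the brighter one did not pass (0.377). The dimmer probe was well above background on 2 young and 3 old arrays. Its log2 fold change was 0.59 with normexp background correction and 1.27 with the deposited values, both past the threshold, and 1.20 to 1.63 when each sample was left out in turn, where the adjusted p of 0.0656 to 0.113 no longer passed. Which exons the probes cover was not analysed here. The fold changes of the 2 probes differed by 1.23 on the log2 scale. Among 3358 genes with at least 2 tested probes the median spread was 0.21, and 2.92% had a spread at least as large as that of Dusp16.

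Of the small atypical enzymes, Dusp3 (NM_028207), a phosphatase of ERK and JNK, had signals of -3.16, -3.52 and -3.39 in young and -3.28, -2.97 and -3.56 in old samples. The groups overlapped, and the log2 fold change of Dusp3 was 0.08 ± 0.18 (limma adjusted p = 0.793; 95% interval from -0.35 to 0.52). Dusp22, an activator of JNK signalling in some cells and a brake on T cell receptor signalling, was read by a probe for each of 2 transcripts. The brighter Dusp22 probe (NM_134068) had signals of -5.63, -4.04 and -3.67 in young samples and -6.08, -5.94 and -5.84 in old samples. Only young replicates 2 and 3 were well above background, so Dusp22 was not tested. No fold is given because the young mean of -4.44 was below the mean, over the old arrays, of the lowest signal well above background. The other Dusp22 probe (NM_001037955) stayed at background on each of the 6 arrays.

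Of 21 other dual-specificity phosphatases on the array 15 could be tested, and 1 rose, 1 fell and 13 did not pass. Among all tested genes 3.98% rose and 4.04% fell. Styxl1 (NM_029659), a catalytically inactive member of the family, rose, with a log2 fold change of 0.75 ± 0.17 (limma adjusted p = 0.0489), and Ssh3 (NM_198113), a phosphatase of the slingshot group, fell by 0.76 ± 0.14 (limma adjusted p = 0.0334). Styxl1 kept its call in 3 of 16 alternatives and lost it, among others, with quantile normalization (limma adjusted p = 0.066), cyclic loess (0.0785), median centring (0.0616) and the deposited values (0.0782). The median over the list was -0.09. The further classic MAP kinase phosphatases Dusp8 and Dusp9 are named here after their values were seen. Dusp8 had a log2 fold change of -0.09 ± 0.23 (limma adjusted p = 0.825), and Dusp9, well above background on 3 of 6 arrays, did not pass (0.308). Among 9 tested phosphatases of other families that act on MAP kinases, none passed limma's test (1 at an unadjusted p under 0.05), and the smallest p belonged to Ptpn22, a phosphatase of lymphocyte receptor signalling, at -0.98 ± 0.24 (limma adjusted p = 0.0594), and to Ptpn7, at 0.23 ± 0.11 (limma adjusted p = 0.221).

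The kinases that these phosphatases act on did not pass the test. None of 10 tested MAP kinases and none of 7 MAP kinase kinases changed by limma's adjusted p, with medians of -0.02 and 0.01, and 2 genes of each list had an unadjusted p under 0.05. The MAP kinases with the smallest p were Mapk13, a p38 kinase, at -1.35 ± 0.31 (limma adjusted p = 0.0523), and Mapk7, or ERK5, at -0.39 ± 0.11 (limma adjusted p = 0.0787). Among the MAP kinase kinases these were Map2k1, which phosphorylates ERK, at -0.68 ± 0.18 (limma adjusted p = 0.0698), and Map2k2 at 0.21 ± 0.08 (limma adjusted p = 0.162). Further upstream, 1 of 13 tested kinases of the next tier fell, beside 4.04% of all tested genes. It was Map3k14, the NF-kB-inducing kinase, at -2.02 ± 0.30 (limma adjusted p = 0.0265). Map3k14 was well above background on 2 of 3 old arrays, and with normexp it was at -0.73 and still passed.

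Of 13 tested genes for Ras and its regulators, 3 fell, beside 4.04% of all tested genes. These 3 were exchange factors that load Ras-like proteins with GTP in blood cells. Rasgrp3 was lower by at least 1.69-fold (limma adjusted p = 0.0178; well above background on none of the old arrays), Rasgrp1 fell by 2.14 ± 0.45 (limma adjusted p = 0.0445) and Rasgrp2 fell by 1.42 ± 0.31 (limma adjusted p = 0.0488). Rasgrp1 was well above background on 1 of 3 old arrays. Rasgrp3 entered the test through its young arrays alone, so its p sets young signal against old background. Its log2 fold change was -0.12 with normexp and did not pass. The normexp offset of 50 exceeds the young Rasgrp3 intensities of 27.6 to 30.9 and shrinks such a change by itself. With normexp Rasgrp1 was at -0.62 and passed, and with cyclic loess it did not pass (limma adjusted p = 0.0559). Rasgrp2 kept its call in 5 of 16 alternatives and lost it with quantile normalization (limma adjusted p = 0.0539), cyclic loess (0.052), the deposited values (0.0503) and in each of the 6 fits that left out a sample. Of 17 substrates and effector kinases of the MAP kinases, 1 fell, the Ets factor gene Elk3, at -1.14 ± 0.21 (limma adjusted p = 0.0324).

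Genes that ERK signalling induces were lower in part. Of 17 tested, 4 fell, none rose and 13 did not pass, and the median was -0.34. The log2 fold changes were negative for 11 and positive for 6, and 9 genes had an unadjusted limma p under 0.05. Among those 9, Spred1 (0.53), Spred2 (0.42) and Etv4 (0.37), named here after their values were seen, had positive log2 fold changes. Fos (NM_010234), an immediate early transcription factor, had signals of 2.44, 2.75 and 2.87 in young and 1.22, 0.99 and 0.60 in old samples, with no overlap between the groups. The log2 fold change of Fos was -1.75 ± 0.19 (limma adjusted p = 0.0208). Phlda1 fell by 1.78 ± 0.21 (limma adjusted p = 0.0222), Junb, a partner of Fos in AP-1, fell by 1.12 ± 0.19 (0.0307), and Plaur, the urokinase receptor gene, fell by 2.01 ± 0.39 (0.0371). Of 8 tested genes of mRNA stability downstream of p38, 2 fell, Zfp36, which encodes the mRNA decay factor tristetraprolin, at -1.81 ± 0.37 (limma adjusted p = 0.0397) and its target Tnf at -1.46 ± 0.24 (0.0285; 2 of 3 old arrays well above background). With normexp Phlda1 was at -0.95, Junb at -0.61, Elk3 at -0.63 and Zfp36 at -0.75, all past the threshold, and Tnf at -0.36 no longer passed (limma adjusted p = 0.0708). The median of the 8 genes of mRNA stability was -1.53. Over all 9 pathway lists together, 12 of 109 tested genes fell and 1 rose, that is 11.0% and 0.917%, beside 4.04% and 3.98% of all genes, and these counts include Rasgrp3. Each of the 13 calls was lost in 3 to 6 of the 6 fits that left out a sample. The lists were written with earlier results of these data known.

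**Figure D3:**
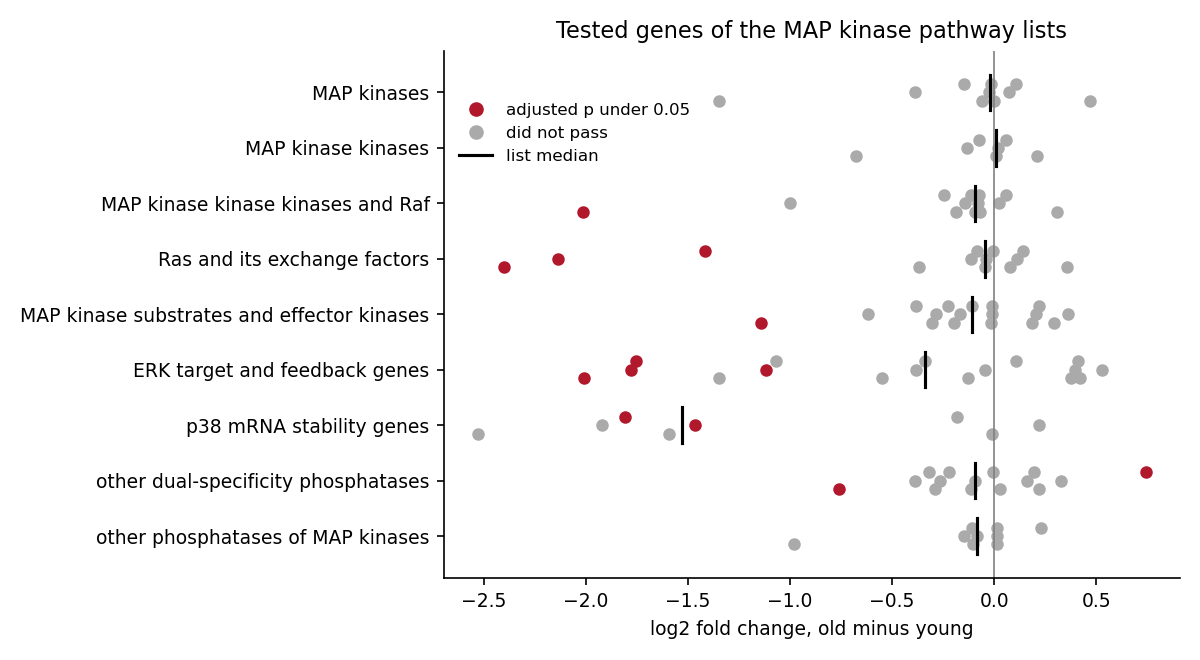
Log2 fold change, old minus young (horizontal axis), of each tested gene in the 9 MAP kinase pathway lists (vertical axis), red where the limma adjusted p was under 0.05, with the list median as a black line. Red points lie on the negative side in all lists that hold one, with Styxl1 at 0.75 as the single red point above 0, and the list medians lie between -1.53 and 0.01.

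Markers of blood cells moved with the age groups in the same samples. Beside the counts that follow, 4.04% of all tested genes fell and 3.98% rose, and the median over all tested genes was 0.07. Of the general leukocyte genes 6 of 10 fell, with a median of -1.40, and the log2 of their summed signal, in units of the array's 75th percentile, was 6.74 to 7.66 in young and 5.86 to 6.14 in old samples. The sums of the other lists are given on the linear scale in the same units. Of monocyte and macrophage genes 6 of 8 fell (median -2.09; sums 22.6 to 50.4 and 9.90 to 14.3), of B cell genes 7 of 9 (median -2.36; sums 36.0 to 54.8 and 6.35 to 12.6) and of neutrophil genes 4 of 12 (median -1.22; sums 1839 to 2886 and 1181 to 1526). Of T and NK cell genes 2 of 8 fell and Cd3e rose, 7 of 8 fold changes were negative (median -1.30), and the sums overlapped (14.9 to 24.8 and 16.1 to 18.8), with Cd3e making up 20.2% to 50.8% of them. The falls counted include the macrophage gene Mrc1 and the NK cell gene Klrb1c, well above background on none of the old arrays. Both entered the test through their young arrays alone, so their p sets young signal against old background. With normexp Mrc1 was at -0.15 and did not pass (limma adjusted p = 0.517), but the offset of 50 exceeds its young intensities of 24.8 to 37.9. Over the alternatives the log2 fold change of Klrb1c ranged from -2.92 to -0.34. None of 9 erythroid or 6 megakaryocyte genes passed limma's test (0 at an unadjusted p under 0.05), and their sums overlapped. Of 7 tested mesenchymal genes 5 had negative fold changes (median -1.56), the collagen gene Col1a1, the chemokine gene Cxcl12 and Thy1 fell, and the leptin receptor gene Lepr rose. Col1a1, lower by at least 37.3-fold, was well above background on none of the old arrays. It too entered the test through its young arrays alone, so its p sets young signal against old background. The log2 fold change of Col1a1 was -3.22 with normexp, and young replicate 2 was its lowest young sample. The mesenchymal sum was 22.2 to 28.9 in young and 33.7 to 41.0 in old samples, and Lepr made up 48.5% to 78.5% of it. Of 3 tested endothelial genes Kdr rose, and it made up 81.4% to 92.8% of a sum of 27.3 to 33.6 in young and 43.5 to 58.3 in old samples. Young replicate 3 had the highest leukocyte sum and the highest Dusp1 signal. Young replicate 1 had the highest Dusp2 signal and the highest B cell sum. It also had the lowest young sums of the leukocyte, neutrophil, monocyte and macrophage, and T and NK cell lists. Without young replicate 3 Dusp2 changed by -1.86 (limma adjusted p = 0.036) and Dusp1 by -0.77 (0.115). Without young replicate 1 Dusp2 changed by -1.83 (limma adjusted p = 0.0482) and Dusp1 by -1.12 (0.0491). The part of blood cell content in the Dusp2 and Dusp1 values was not tested.

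The genes whose 6 values followed those of Dusp2 most closely were found by the root mean square difference between profiles centred on each gene's mean, over 12153 named genes well above background on all arrays. They were Rsph9, a radial spoke gene of cilia (0.07 log2 units), Pde2a, a cyclic nucleotide phosphodiesterase (0.15), Cd93, a receptor of myeloid and endothelial cells (0.16), Wdfy4, a gene of antigen cross-presentation in dendritic cells (0.16), and Cerk, which encodes ceramide kinase (0.19). The median difference over these genes was 0.98. Dusp1 ranked 449 at 0.53, Dusp6 1050 at 0.76, Dusp7 6465 and Dusp16 8661. Because Dusp2 was picked as the reference, these likenesses are descriptions of the same 6 samples and were not tested.

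Old arrays had less signal. The processed intensity at the 75th percentile was 277 to 349 in young and 206 to 285 in old samples, and 55.3% to 60.0% against 50.9% to 53.4% of probes were well above background. The arrays shared 1 slide and 1 scan. Each age group filled a row of its own on that slide, so position and age cannot be told apart. None of the 12 member probes was saturated.

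**Figure D4:**
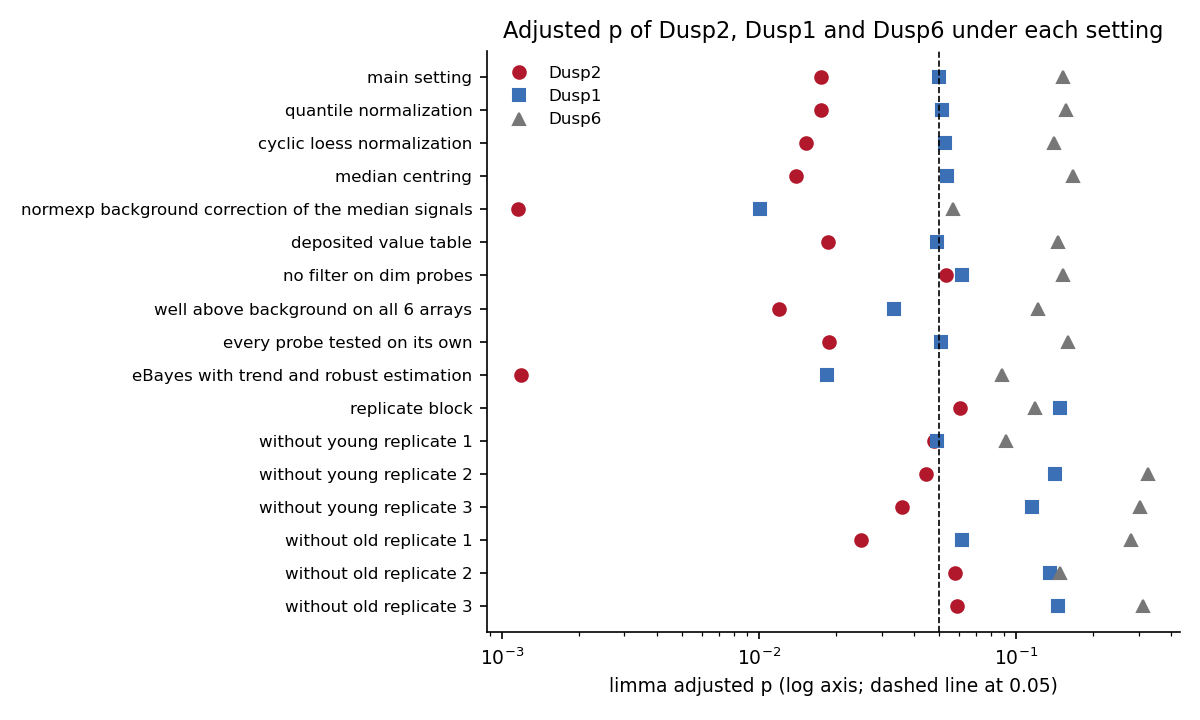
Limma adjusted p (horizontal log axis, dashed line at 0.05) of Dusp2, Dusp1 and Dusp6 under the main setting and each of the 16 alternatives (vertical axis). Dusp2 lies between 0.00116 and 0.0608, Dusp1 between 0.0101 and 0.148 on both sides of the line, and Dusp6 to the right of it throughout.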

How the data were processed

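Agilent Feature Extraction 10.7.3.1 wrote the spot intensities that the authors deposited, per the file headers, on a probe design annotated on mm9. Version 10.5.1.1 stands in the submitters' processing notes. The deposited processed intensity had a median ratio of 0.996 to 1.003 to the background-subtracted column of the same array among probes well above background, so it carries no scaling between arrays beyond that. A second deposited table holds the authors' log2 values for 52095 probes, of unknown scaling and centring. Their column medians were 4.91, 4.92 and 4.95 for young and 4.94, 4.92 and 4.87 for old replicates 1 to 3, and each column correlated with its own array's log2 processed intensity at r = 0.9986 to 0.9992 across probes.

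Control and outlier spots were left out, repeated spots averaged, and the 75th percentile of each array subtracted from log2 values. RefSeq accessions were matched without version to symbols of GRCm38.p6, for 47.4% of probes. The brightest probe stood for a gene, which was tested where 3 or more of 6 arrays had that probe well above background. Limma 3.58.1 (R 4.3.3) compared the groups without covariates, and this comparison, but not the steps before it, was tested on simulated data. Python 3.11.15 with pandas 2.3.3 read the files.

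The members and lists were chosen with earlier results of these data known. Every member was named, and from each pathway list the 4 genes with the smallest p among those past the threshold in each direction, or else the 2 with the smallest p. An "at least" fold sets the brighter mean against the lowest signal well above background, or the probe's own if higher, on the dim arrays. The alternatives were other scalings, background correction, filters, probes and variance models, the replicate block and leaving out each sample. The background correction, normexp, added an offset of 50 to each corrected signal, which shrinks fold changes of dim probes.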

Additional observations from a re-analysis of the deposited data

How the results depend on the processing

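The count of 1864 called genes (49.6% of them higher in old samples) was 2871 with normexp (61.7% higher), a background correction of the median signals chosen after seeing the data in place of the planned one on mean signals, which was not run. It was 3264 with an intensity trend and robust estimation together in the variance model, and 1531 with the deposited table (39.0% higher). No gene passed with limma without the filter on dim probes (11662 at an unadjusted p under 0.05) or with the replicate number as a block (5554 unadjusted). Leaving out a sample gave 1 to 1154 calls, with 768, 63 and 321 without young replicates 1 to 3 and 1154, 1 and 5 without old replicates 1 to 3. Of the members, 1 passed in the main setting, Dusp2. Dusp1 joined it, making 2, with normexp, the deposited table, the filter on all 6 arrays and the trend with robust estimation. The number was 0 without the filter and with the replicate block (Dusp2 adjusted p = 0.0608), and 0 to 2 when a sample was left out. Same-numbered samples of the groups did not deviate together (r = -0.03, 0.02 and -0.01 across genes), so the numbers were not read as pairs. Directions turned for members that had not passed: Dusp7 (-0.0092) and Dusp3 (-0.0084) with the deposited table, Dusp3 without old replicate 2 (-0.0674, over a range of -0.0674 to 0.23 when each sample was left out) and Dusp10 with normexp (0.0043). Dusp2, Dusp1, Dusp6 and the brighter Dusp16 probe kept their direction in all 16 alternatives. Signal over background limits Dusp3, Dusp10, the dimmer Dusp16 probe and the untested Dusp4, Dusp5 and Dusp22.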
